A study of Homo sapiens with 24 samples.

Results

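The extracellular and membrane metalloproteases of A549 cells and their inhibitors were followed through 3 days in medium conditioned by other cells. The set holds 10 genes of the 22026 in the authors' table, chosen by name: the matrix metalloprotease genes MMP1, MMP2, MMP14, MMP15 and MMP24, the inhibitor genes TIMP1, TIMP2 and TIMP3, and the sheddase genes ADAM17 and ADAM10. All 10 were found, and 8 passed the filter of a mean of at least 1 RPKM, while MMP1 and TIMP3 stayed below it and have values but no main test. RPKM values are read counts scaled by the length of the gene model and by the mapped reads of the library, which allows levels to be compared between genes.

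A549 is an established line of human lung carcinoma cells. It was kept in control medium or in CAF conditioned medium, and collected after 3, 6, 12, 24, 48 and 72 h. CAF is not spelled out in the labels and in this field usually stands for cancer-associated fibroblast. The sources used here give neither the origin nor the dose of the CAF medium, nor the make-up of the control medium. Each medium and time has 1 library in the table, although the design text speaks of 2 biological replicates, so differences at 1 time cannot be checked against replicates and the 6 times stood in as replicates of the medium effect. No label ties the libraries to separate cultures. P-values thus measure only the spread among the libraries at hand, which may be technical.

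Matrix metalloproteases are zinc enzymes that cut collagens, laminins and other matrix and surface proteins. They are made as inactive precursors, and TIMPs block their active sites, so that activity depends on protease, activation and inhibitor together. In carcinomas much of the matrix protease is usually made by the surrounding fibroblasts, and tumour cells contribute membrane-bound forms. ADAM17 and ADAM10 are related membrane enzymes that release growth factors, cytokine receptors and cadherins from the cell surface. RNA levels carry no information on activation or secretion.

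The libraries of 3 to 12 h held 23.9 to 29.3 M reads each, and those of 24 to 72 h held 33.9 to 40.6 M reads. The epithelial keratin genes KRT8 and KRT18 reached 1265 to 2357 and 677 to 1109 RPKM, whereas EPCAM stayed at 0.24 to 6.46 RPKM. The 13 fibroblast markers summed to 11.2 to 34.9 RPKM in control medium (median 15.1) and 20.8 to 34.5 in CAF medium (median 26.9). SPARC made up much of this sum (2.86 to 19.95 RPKM over all 12 libraries), while COL1A2, COL3A1, COL6A3, PDGFRB and POSTN did not exceed 0.16 RPKM in any library. COL6A3, PDGFRB and POSTN were at 0 in at least 1 control library. At 3 to 24 h the fibroblast sum was 11.2 to 16.0 RPKM in control and 20.8 to 32.7 in CAF medium. In control medium it stood at 34.9 and 34.4 RPKM at 48 and 72 h, above the CAF medium libraries of those times (34.5 and 29.9). By limma 0 of the 4 markers tested were called over the 6 times, against 6.06% of all tested genes called higher and 4.13% lower. Over 3 to 12 h 1 of the 4 was called higher, COL1A1 (log2 1.11, limma adjusted p = 0.0259), against 3.77% of all tested genes. The median log2 change of the 4 in that period was 0.53, and that of all tested genes 0.03. The part of these markers in the results on the metalloproteases was not tested. The endothelial markers summed to at most 0.13 RPKM, and the leukocyte markers PTPRC and CD3E to at most 0.04 each, with CD68 at 14.0 to 30.6.

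TIMP1, TIMP2 and both sheddase genes had higher means than the 5 MMP genes, and TIMP3 the lowest mean of all 10. TIMP2 had the highest mean, 83.2 ± 10.6 RPKM (SD, n = 12 libraries), followed by ADAM10 (32.1 ± 4.23), TIMP1 (31.01 ± 6.55) and ADAM17 (20.7 ± 4.58). MMP24 (13.7 ± 3.24) was the most abundant of the 5 MMP genes, ahead of MMP15 (5.87 ± 3.35), MMP2 (4.17 ± 1.79), MMP14 (1.56 ± 1.27) and MMP1 (0.63 ± 0.63), and TIMP3 (0.06 ± 0.06) was nearly silent. The mean ± SD ranges of ADAM10 and TIMP1 overlapped, as did those of MMP15 and MMP2. These SDs also hold changes with time and medium, and the levels of the genes were not tested against each other. MMP1 and TIMP3 had SDs as large as their means.

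**Figure D1:**
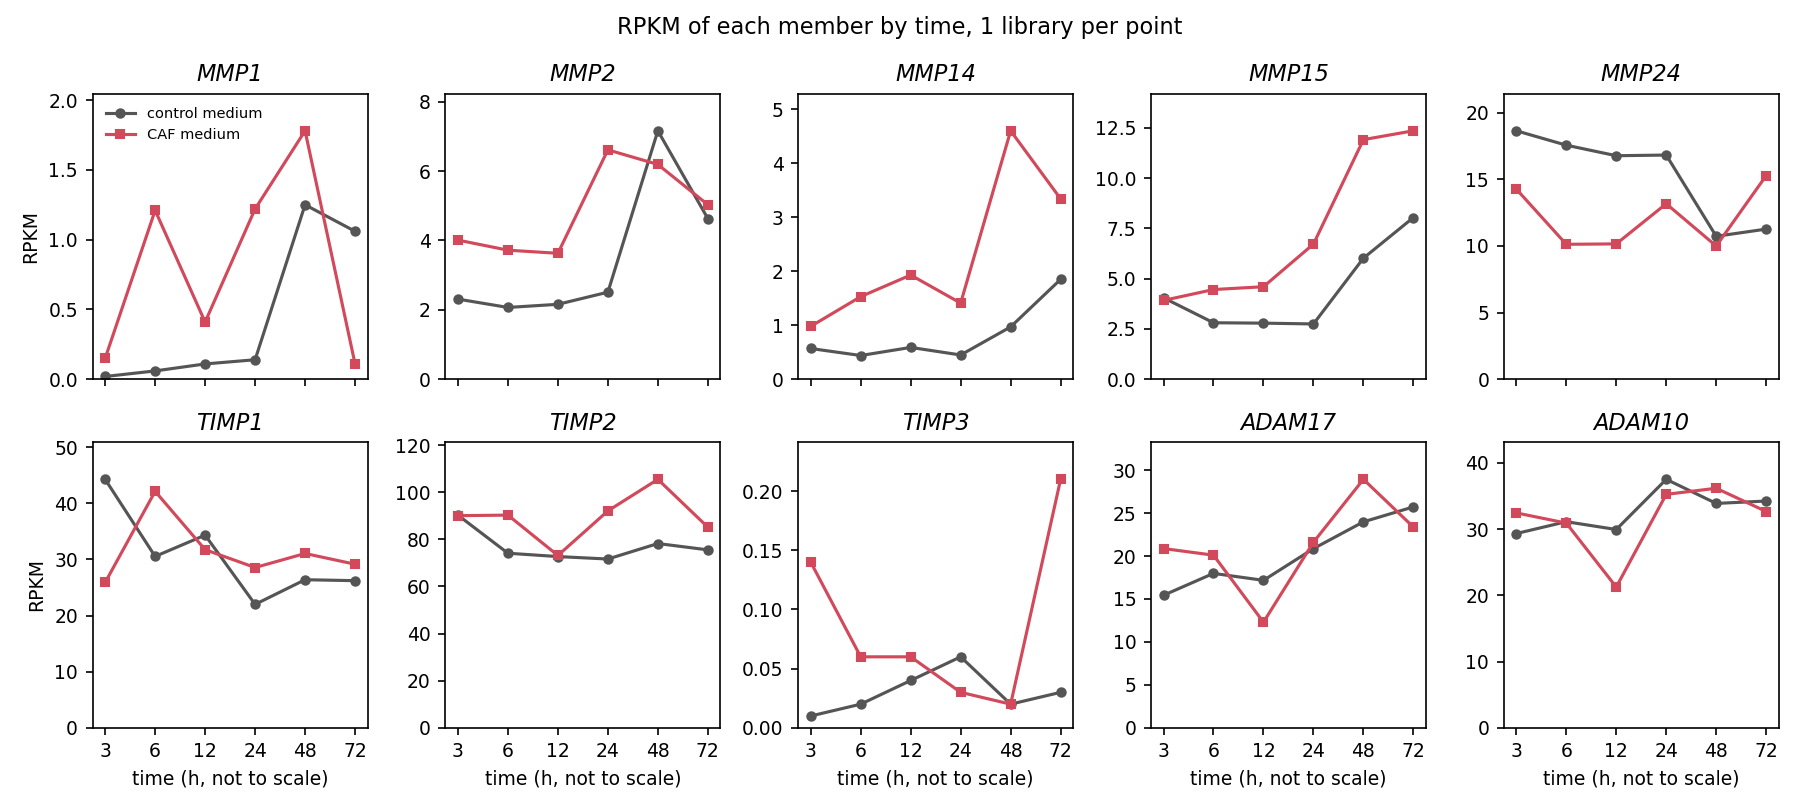
RPKM (y axis, from 0, a scale for each gene) of the 10 genes at 3, 6, 12, 24, 48 and 72 h (x axis, evenly spaced), 1 library per point, control medium in grey circles and CAF medium in red squares. MMP14 lies higher in CAF medium at 6 of 6 times, and MMP24 lies lower at 5 of 6.

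MMP14 encodes MT1-MMP, the membrane-anchored collagenase that also activates pro-MMP2 at the cell surface. It measured 0.57, 0.44, 0.59, 0.45, 0.97 and 1.85 RPKM in control medium at 3, 6, 12, 24, 48 and 72 h. In CAF medium it measured 0.98, 1.53, 1.93, 1.41, 4.60 and 3.34 RPKM. CAF medium was higher at 6 of 6 times, which 8.97% of the tested genes were, yet the 72 h control exceeded the CAF medium libraries of 3, 6 and 24 h, so the groups overlap when time is ignored. In bulk RNA, a change in the share of cells that express a gene and a change in RNA per cell cannot be told apart.

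The rise of MMP14 was the largest of the 8 tested members. Over the 6 times its mean went from 0.81 ± 0.54 to 2.30 ± 1.39 RPKM (SD, n = 6 times), and limma gave a log2 change of 1.04 ± 0.16 (SE, adjusted p = 0.0128). It ranked 39 from the top among the 12029 tested genes. The ratio of CAF to control medium was 1.72 at 3 h, where 54 and 101 reads gave a 95% interval of 1.21 to 2.41. It was 3.48, 3.27 and 3.13 at 6, 12 and 24 h, reached 4.74 (3.91 to 5.83) at 48 h, and was 1.81 (1.55 to 2.11) at 72 h. These intervals cover counting error only. With the 6 h or the 12 h pair left out the limma adjusted p was 0.0508 and 0.0542, with log2 changes of 1.03 and 1.02.

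MMP14 was also called in each period. It rose by log2 0.91 ± 0.23 over 3 to 12 h (limma, adjusted p = 0.0439). From 24 to 72 h the rise was log2 1.17 ± 0.23 (adjusted p = 0.0179). The late minus the early effect was 0.26 ± 0.32 (adjusted p = 0.804, 95% interval -0.45 to 0.97). This comparison of the periods called 0 of 8 members, and 0.416% of all tested genes. Leaving out the 6 h or the 12 h pair ended the early call (adjusted p = 0.234 and 0.211), as did a pseudocount of 1 (0.0557) and quantile normalization (0.151). The late call was lost without the 48 h pair (log2 0.86, adjusted p = 0.212).

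MMP15, a close relative that encodes MT2-MMP, followed a similar course at a higher level. Control medium gave 4.05, 2.81, 2.79, 2.75, 6.02 and 8.04 RPKM in order of time, and CAF medium 3.92, 4.46, 4.60, 6.72, 11.91 and 12.35. At 3 h the libraries of both media were alike (ratio 0.97, 95% interval 0.85 to 1.10), and from 6 h on the CAF medium library was higher at every time. The ratio was 1.59 at 6 h, 1.65 at 12 h, 2.44 (2.18 to 2.73) at 24 h, 1.98 at 48 h and 1.54 at 72 h.

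MMP15 rose over the 6 times by log2 0.64 ± 0.14 (SE, limma adjusted p = 0.0225), from a mean of 4.41 ± 2.18 to 7.33 ± 3.84 RPKM. With MMP14 it makes 2 of 8 tested members called higher over the 6 times and 0 called lower, against 6.06% and 4.13% of all tested genes. The median log2 change was 0.13 over the 8 members and 0.002 over all tested genes. MMP15 passed over 24 to 72 h (log2 0.89 ± 0.17, limma adjusted p = 0.0142) and not over 3 to 12 h (0.39 ± 0.17, adjusted p = 0.172), but the difference itself was not past the threshold (0.50 ± 0.24, adjusted p = 0.449). Over 24 to 72 h MMP14 and MMP15 were the 2 of 8 members called higher, against 1.36% of all genes, and 0 were called lower, against 2.74%. The overall call was lost when the pair of 6, 12 or 24 h was left out (adjusted p = 0.0723, 0.0707 and 0.0783). The late call was lost without the 24 or 48 h pair (0.0775 and 0.135). With no filter on low values, or with no time term, none of the medium calls of MMP14, MMP15 and MMP24 held (limma adjusted p = 0.0689 to 0.172 and 0.143 to 0.386), and with no filter the calls with time of MMP2, MMP14 and MMP15 were lost too (0.0509 to 0.0737).

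MMP24 encodes MT5-MMP, a membrane-type enzyme best known from the nervous system, and it moved the other way. The gene measured 18.63, 17.55, 16.76, 16.81, 10.72 and 11.26 RPKM in control medium in order of time. In CAF medium it measured 14.26, 10.12, 10.15, 13.16, 9.99 and 15.27. Ranges of both media overlapped over the 6 times, and the 48 and 72 h controls lay within the CAF medium range. At 72 h the order was turned, with a ratio of 1.36 (95% interval 1.28 to 1.44).

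MMP24 fell over 3 to 12 h by 0.61 ± 0.16 on the log2 scale (limma adjusted p = 0.0475), with ratios of 0.77, 0.58 and 0.61 at 3, 6 and 12 h. Over this period 1 of 8 members was called lower, against 1.86% of all tested genes, and 1 higher, against 3.77%. Over 24 to 72 h its log2 change was -0.01 ± 0.16 (adjusted p = 0.99), a sign that turned to 0.01 under median centring and 0.03 under quantile normalization. The late minus the early effect was 0.61 ± 0.22 (adjusted p = 0.329), and over the 6 times MMP24 missed the threshold (log2 -0.31 ± 0.14, adjusted p = 0.177), which it passed without the 72 h pair (-0.45, adjusted p = 0.0403). The early call was lost when the pair of 3, 6, 12 or 48 h was left out (adjusted p = 0.0571, 0.251, 0.193 and 0.0577), under quantile normalization (0.0576) and without the mean-variance trend (0.058). In the RefSeq table MMP24OS and MMP24-AS1-EDEM2 overlap MMP24, they were not analysed here, and since the use of strand in counting is not stated, reads of MMP24 and of these genes cannot be told apart.

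**Figure D2:**
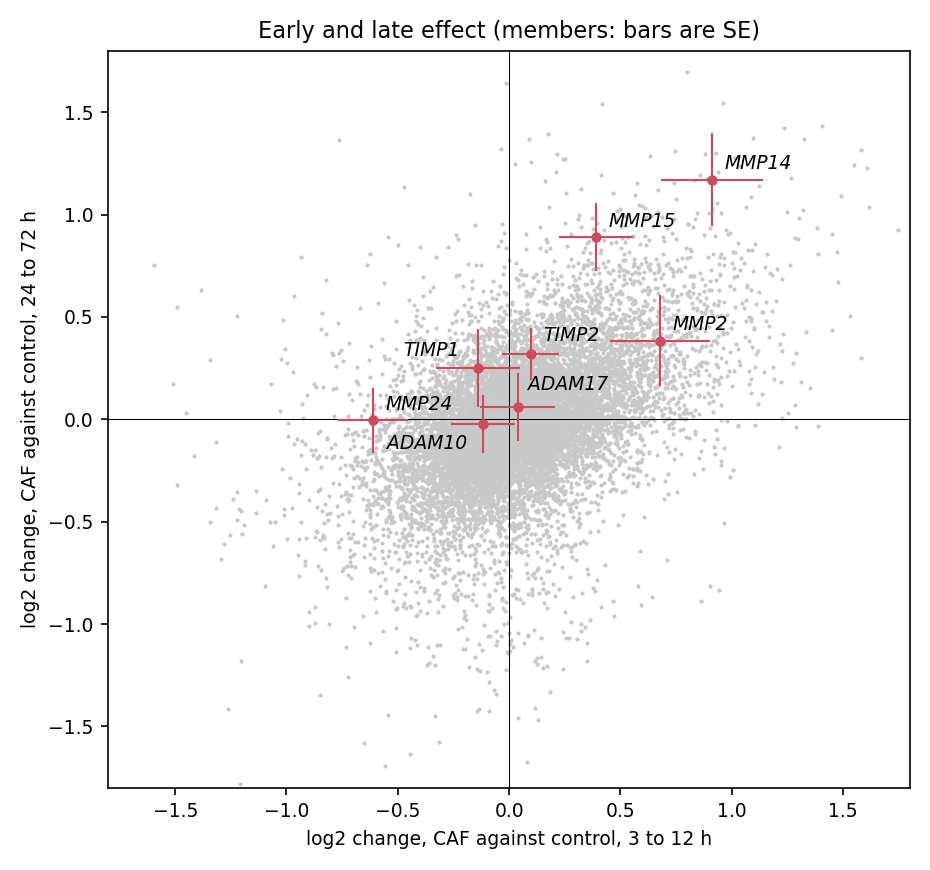
Log2 change in CAF against control medium over 3 to 12 h (x axis) and over 24 to 72 h (y axis), with all tested genes in grey (9 lie outside the axes) and the 8 tested members in red with SE bars. MMP14 lies far from 0 on both axes (0.91 and 1.17), MMP15 mainly on the late axis (0.39 and 0.89), and MMP24 only on the early one (-0.61 and -0.01).

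The upstream promoter stretches of these 3 members, which were called in at least 1 period, are shown to let their base composition be compared. Each runs over 250 bases up to the base before the RefSeq start (GRCh38.p14, plus strand), with matches to the GC box GGGCGG on either strand in capitals. They lie at chr14:22836335-22836584, chr16:58025504-58025753 and chr20:35226440-35226689.
MMP14: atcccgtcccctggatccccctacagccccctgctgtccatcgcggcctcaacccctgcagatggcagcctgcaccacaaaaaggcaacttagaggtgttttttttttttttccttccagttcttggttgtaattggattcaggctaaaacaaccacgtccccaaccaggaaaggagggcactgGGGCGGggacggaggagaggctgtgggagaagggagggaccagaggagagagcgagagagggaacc
MMP15: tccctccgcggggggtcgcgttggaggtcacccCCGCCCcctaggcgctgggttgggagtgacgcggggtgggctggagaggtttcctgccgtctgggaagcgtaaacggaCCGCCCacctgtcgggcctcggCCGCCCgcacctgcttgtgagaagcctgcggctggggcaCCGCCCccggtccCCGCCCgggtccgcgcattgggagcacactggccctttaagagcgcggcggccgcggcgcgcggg
MMP24: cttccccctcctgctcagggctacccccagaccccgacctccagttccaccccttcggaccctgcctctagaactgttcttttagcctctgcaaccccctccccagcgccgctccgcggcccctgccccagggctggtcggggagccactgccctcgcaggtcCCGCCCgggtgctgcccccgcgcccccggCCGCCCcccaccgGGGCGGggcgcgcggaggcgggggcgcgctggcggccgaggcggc

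The MMP14 stretch is 56.8% G and C with 1 GC box, against 74.8% with 5 in MMP15 and 77.6% with 3 in MMP24. Across all RefSeq promoter stretches of this length the median is 58% G and C. A GC box stands in 42.6% of the 35116 RefSeq promoter stretches of this length. Of the 10 members 7 had an entry, while MMP1, MMP2 and TIMP2 had none and were not searched. Each of the 7 holds at least 1 GC box. Their stretches were 56.8 to 77.6% G and C, and the part of base composition in these matches was not tested. The AP-1 letters TGANTCA, the TATA letters TATAAA and the STAT letters TTCNNNGAA, searched on both strands, were in none of the 7, and stand in 6.57%, 10.7% and 6.57% of all stretches. The E-box letters CACCTG stand in 17.5% of them and, among the 7, in MMP15 alone, with 2 matches, of which 1 overlaps a GC box match.

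MMP2 encodes gelatinase A, the secreted enzyme that MT1-MMP activates. Control medium gave 2.31, 2.07, 2.16, 2.51, 7.16 and 4.63 RPKM in order of time, and CAF medium 4.01, 3.72, 3.63, 6.61, 6.19 and 5.03. Ranges of both media overlapped over the 6 times, and the 48 h control was the highest library of all. The ratio was 1.74, 1.797 and 1.68 at 3, 6 and 12 h and 2.63 (95% interval 2.33 to 2.98) at 24 h, then 0.86 (0.79 to 0.95) at 48 h and 1.09 (0.98 to 1.20) at 72 h.

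No period gave a call for MMP2. Its log2 change was 0.53 ± 0.16 over the 6 times (limma adjusted p = 0.0612), 0.68 ± 0.22 over 3 to 12 h (adjusted p = 0.0937), and late, from 24 to 72 h, 0.38 ± 0.22 (adjusted p = 0.356). It passed over the 6 times without the 48 h pair (log2 0.68, adjusted p = 0.034) and under median centring (0.52, adjusted p = 0.0491), and over 3 to 12 h without the 24 h pair (0.68, adjusted p = 0.014). Without the 24 h pair its late change turned to -0.04.

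MMP1, the interstitial collagenase that cleaves fibrillar collagen, was low and uneven. Control medium held 0.02, 0.06, 0.11, 0.14, 1.25 and 1.06 RPKM in order of time, from 1, 3, 6, 11, 91 and 87 reads. CAF medium held 0.15, 1.21, 0.41, 1.22, 1.78 and 0.11 RPKM, from 9, 66, 23, 85, 138 and 9 reads. CAF medium was higher at 5 of 6 times and lower at 72 h, and the ranges of both media overlapped. The ratio was 20.2 at 6 h (95% interval 6.51 to 98.8) and 8.71 at 24 h (4.49 to 17.6), but 0.10 at 72 h (0.05 to 0.20). With no filter on low values the log2 change over the 6 times was 0.49 ± 0.36 (limma adjusted p = 0.476). In the RefSeq table WTAPP1 overlaps MMP1, and it measured 0 to 0.11 RPKM, with reads that cannot be told apart without stated strand counting.

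**Figure D3:**
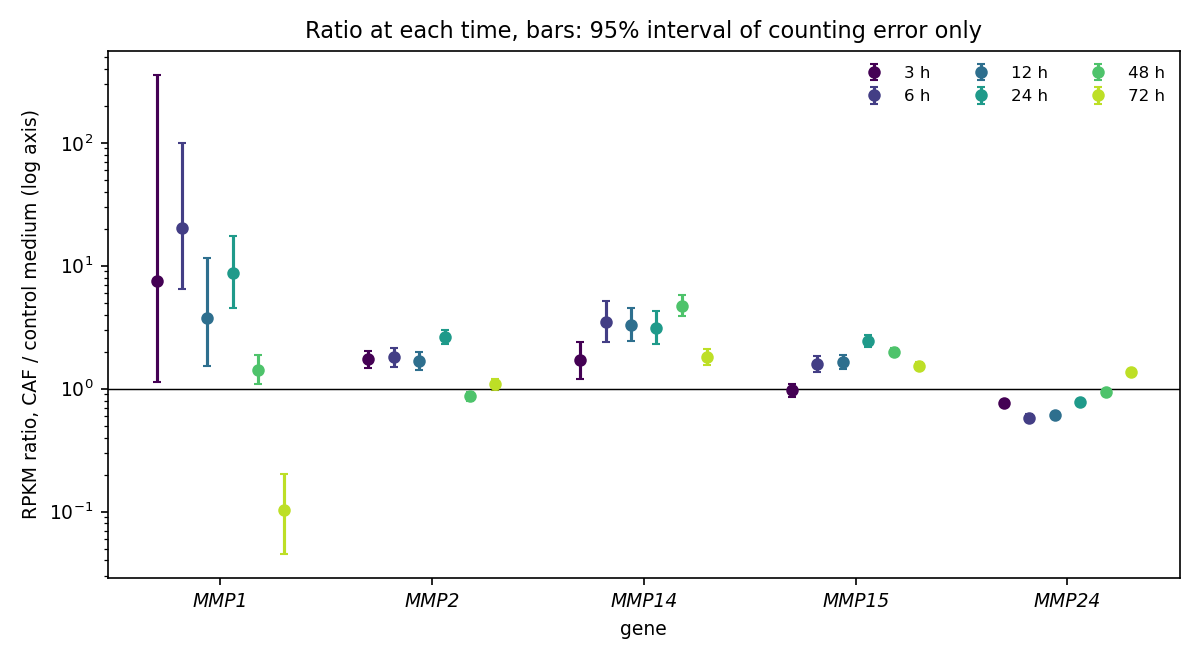
Ratio of RPKM in CAF to control medium (y axis, log scale) for the 5 MMP genes (x axis) at 3 to 72 h (colours from dark to light), with exact 95% intervals of counting error only. MMP14 lies above 1 at every time (1.72 to 4.74), and MMP1 swings from 20.2 at 6 h to 0.10 at 72 h.

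The make-up of the transcripts of the 5 MMP members differed with medium and with time. Sums and shares here hold for these 5 genes alone. MMP7, which is not among them, measured 6.6, 4.05, 7.56, 5.92, 8.76 and 26.31 RPKM in control medium in order of time. In CAF medium MMP7 measured 9.03, 6.65, 3.6, 5.67, 13.07 and 21.22 RPKM. Summed over the 5 genes, control libraries held 25.6, 22.9, 22.4, 22.7, 26.1 and 26.8 RPKM in order of time, and CAF medium libraries 23.3, 21.04, 20.7, 29.1, 34.5 and 36.1. The CAF medium sum was thus the lower one at 3, 6 and 12 h and the higher one at 24, 48 and 72 h. MMP24 made up 72.8 to 76.5% of the control sum at 3 to 24 h and about 41 and 42% at 48 and 72 h. In CAF medium its share was 61.1, 48.1, 49.0, 45.2, 29.0 and 42.3% in order of time, below the control at 3 to 48 h and level with it at 72 h. MMP14 made up 1.92 to 6.89% of the sum in control medium and 4.20 to 13.3% in CAF medium.

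Without MMP24 the other 4 MMP genes summed to 6.95, 5.38, 5.65, 5.85, 15.4 and 15.6 RPKM in control medium in order of time. In CAF medium they summed to 9.06, 10.9, 10.6, 16.0, 24.5 and 20.8 RPKM. At each of the 6 times the CAF medium sum was the higher one, and in control medium the sum stayed under 7 RPKM until 24 h. MMP24, the gene left out, was lower in CAF medium at 5 of 6 times, so this direction follows in part from that choice. With MMP24 the CAF medium sum was the lower one at 3, 6 and 12 h. The TIMP sum was 93.7 to 134.5 RPKM in control and 104.9 to 136.5 in CAF medium. It was 3.79 to 5.26 times the sum of the 5 MMP genes in control medium and 3.17 to 6.29 times in CAF medium. These sums describe RNA, and their media were not tested against each other.

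**Figure D4:**
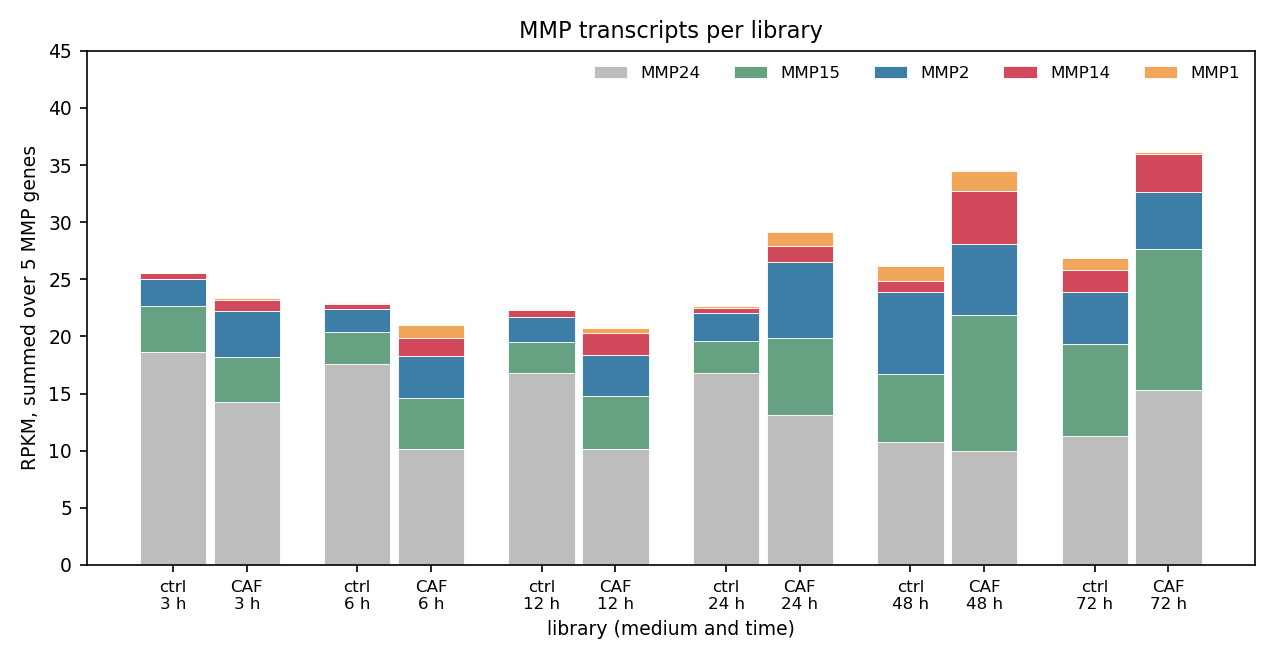
RPKM summed over the 5 MMP genes (y axis, from 0) in each of the 12 libraries (x axis, control and CAF medium side by side at each time), with 1 colour per gene. The grey MMP24 part is smaller in CAF than in control medium at 3 to 48 h (61.1 against 72.8% at 3 h, 29.0 against 41.04% at 48 h) and alike at 72 h (42.3 against 41.95%), and the tallest bar is CAF medium at 72 h (36.1).

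TIMP2, which inhibits MMPs and also takes part in MT1-MMP activation of pro-MMP2, was not called in any comparison. It measured 90.24, 74.09, 72.67, 71.63, 78.20 and 75.52 RPKM in control medium in order of time. In CAF medium it measured 90.03, 90.26, 73.13, 92.05, 105.45 and 85.14. Both media were alike at 3 and 12 h, and the 3 h control stood apart from the other controls. The log2 change was 0.21 ± 0.09 over the 6 times (limma adjusted p = 0.156), and late, from 24 to 72 h, 0.32 ± 0.13 (adjusted p = 0.172), with 95% intervals of 0.01 to 0.41 and 0.04 to 0.60 before adjustment.

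TIMP1, a secreted inhibitor, measured 44.26, 30.53, 34.32, 21.99, 26.38 and 26.21 RPKM in control medium in order of time. In CAF medium it measured 25.89, 42.12, 31.73, 28.55, 31.05 and 29.14. The highest control was that of 3 h and the highest CAF medium library that of 6 h, and the ranges overlapped almost wholly. Its log2 change was 0.06 ± 0.15 over the 6 times (limma adjusted p = 0.829, 95% interval -0.27 to 0.38), and it turned to -0.02 with 6 h left out and -0.01 with 24 h left out. Over 3 to 12 h it was -0.14 ± 0.19 (adjusted p = 0.692), and late, from 24 to 72 h, 0.25 ± 0.19 (adjusted p = 0.485). The early value turned to 0.17 without the 3 h pair.

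TIMP3, the inhibitor that binds to matrix and also blocks ADAM17, stayed at or below 0.21 RPKM. Control libraries held 1 to 12 reads, and CAF medium libraries 4 to 47. The 3 h and 72 h CAF medium libraries stood highest, at 0.14 and 0.21 RPKM, against 0.01 and 0.03 in their controls (ratios 14.0, 95% interval 3.23 to 824, and 7, 2.98 to 17.4). The ratios come from rounded RPKM and the intervals from reads worked out from it, so rounding error at such low values is not covered. At 6, 12, 24 and 48 h the counting intervals of the ratio held 1. With no filter on low values the log2 change over the 6 times was 0.14 ± 0.07 (limma adjusted p = 0.288). In the RefSeq table SYN3 overlaps TIMP3, and it measured 0.02 to 0.19 RPKM, with reads that cannot be told apart without stated strand counting.

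The sheddases showed no call in any comparison of the media. ADAM17, which releases TNF and EGF receptor ligands, ranged from 15.4 to 25.7 RPKM in control medium (median 19.4) and from 12.3 to 28.9 in CAF medium (median 21.2). Its log2 change over the 6 times was 0.05 ± 0.12 (limma adjusted p = 0.809, 95% interval -0.21 to 0.31), and -0.03 without the 3 h pair. ADAM10, which cleaves Notch receptors and cadherins, ranged from 29.3 to 37.5 RPKM in control medium (median 32.5) and from 21.3 to 36.2 in CAF medium (median 32.6). Its log2 change was -0.07 ± 0.10 (adjusted p = 0.672, 95% interval -0.29 to 0.15), and 0.01 without the 12 h pair.

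Both sheddases had their lowest value in the CAF medium library of 12 h, ADAM17 at 12.3 against 17.2 RPKM in its control and ADAM10 at 21.3 against 29.95. The ratios were 0.72 (95% interval 0.67 to 0.76) and 0.71 (0.68 to 0.74). At the other times the ratio lay between 0.91 and 1.35 for ADAM17 and between 0.94 and 1.11 for ADAM10. The CAF medium library of 12 h was also the lowest of all for other genes, such as FN1, VCAN, TSPAN14 and NOTCH2. It was not the lowest for ADAM9 or TSPAN15, and a wider shift of this library was not tested. In the RefSeq table IAH1 overlaps ADAM17, and it measured 6.92 to 15.1 RPKM here, with reads that cannot be told apart without stated strand counting.

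Among the tested members, 3 metalloprotease genes rose with time and no inhibitor or sheddase gene was called, although ADAM17 was called under other time fits. Per doubling of the hours, log2 expression averaged over both media rose by 0.29 ± 0.07 for MMP15 (limma adjusted p = 0.0124), 0.27 ± 0.06 for MMP14 (adjusted p = 0.0143) and 0.21 ± 0.06 for MMP2 (adjusted p = 0.0238). These are 3 of 8 members called higher with time and 0 lower, against 15.1% and 9.62% of all tested genes. The slopes of TIMP1, TIMP2, MMP24, ADAM17 and ADAM10 were -0.09, -0.01, -0.08, 0.12 and 0.05 (adjusted p = 0.127, 0.922, 0.222, 0.0883 and 0.423). Whether the slopes of members differ from each other was not tested.

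In control medium alone MMP24 fell with time (slope -0.17, limma adjusted p = 0.0285) and ADAM17 rose (0.15, adjusted p = 0.0202), while the slopes of MMP14 and MMP15 missed the threshold (0.21 and 0.22, adjusted p = 0.0926 and 0.117). In CAF medium alone MMP2 missed it (0.13, adjusted p = 0.196), and the slope of MMP24 was 0.02. For MMP14 and MMP15 the call was lost without the 48 h pair (adjusted p = 0.0633 and 0.0557) or the 72 h pair (0.105 and 0.0978), and for MMP2 without the 6, 48 or 72 h pair (0.0797, 0.0902 and 0.0561). MMP14 also lost it under quantile normalization (0.053). ADAM17, not called in the slope over both media, passed without the 12 h pair (0.0308), with hours on a linear scale (0.0338) and in a fit of the 12 libraries with medium as a term (0.0437).

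Across the 12 libraries MMP14 and MMP15 ran most alike among the 45 pairs of members (Pearson r = 0.91 of log2 values), and MMP1 and MMP24 most opposed (r = -0.86). ADAM17 and ADAM10 had r = 0.86. The libraries share 6 times and 2 media, so r describes these courses only. Of all tested genes, GOLGA2, ZNF330 and TMEM63B were most like MMP14 (r = 0.98, 0.97 and 0.97), and 199 genes had r above 0.9. HEATR5A, EVA1C and RAB11FIP4 were most like MMP15 (r = 0.98 each), and ZNF853, ABCA1 and ORAI3 most like MMP2 (r = 0.96 each). For MMP15 477 genes had r above 0.9, and for MMP2 136, so such values were not particular to the genes named.

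Other genes of the system were taken from lists, whose counts stand against 6.06% higher and 4.13% lower over the 6 times, and a median log2 of 0.002, among all tested genes. Of 17 further MMP and TIMP genes in the table only MMP7, MMP17, MMP28 and TIMP4 reached a mean of 1 RPKM, and 0 of these 4 were called over the 6 times by limma (median log2 0.30). MMP7, the epithelial matrilysin, averaged 9.87 RPKM in each medium, with libraries from 3.6 to 26.31 RPKM. TIMP4 averaged 1.66 and 2.04 in control and CAF medium. MMP17 and MMP28 rose with time, by 0.29 ± 0.04 and 0.18 ± 0.04 per doubling of the hours (limma adjusted p = 0.00255 and 0.0104). The gelatinase MMP9 reached at most 0.08 RPKM, and the stromelysins MMP3 and MMP10 at most 0.36 and 0.25. Among 9 tested ADAM and ADAMTS genes 0 were called over the 6 times (median log2 0.03), with ADAM9 at 114.6 and 115.0 RPKM and ADAM19 at 11.9 and 12.4 in control and CAF medium. ADAMTS6 rose over 3 to 12 h (log2 0.93 ± 0.22, adjusted p = 0.0352), and ADAM22 with time (0.19 ± 0.05, adjusted p = 0.0182).

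Among genes that activate or restrain MMPs, 1 of 9 tested rose and 1 fell over the 6 times (median log2 0.18), against 6.06% and 4.13% of all tested genes (median 0.002), so nothing is read from the count. RECK, a membrane-anchored inhibitor of MMPs, rose from 5.09 ± 1.17 to 6.63 ± 0.51 RPKM (log2 0.37 ± 0.11, limma adjusted p = 0.0492), and over 3 to 12 h by log2 0.56 (adjusted p = 0.0352). THBS1, the matricellular protein thrombospondin, fell from 32.7 ± 19.5 to 17.2 ± 6.78 RPKM (log2 -0.78 ± 0.12, adjusted p = 0.0132), and over 3 to 12 h by 1.05 on the log2 scale (adjusted p = 0.00929). With time CD44 and LRP1 rose and THBS1 and PCSK7 fell (0.18, 0.25, -0.41 and -0.13 per doubling, adjusted p = 0.0148, 0.00685, 0.00235 and 0.0421).

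Of the 7 tested partners of the sheddases, iRhoms and tetraspanins, 1 rose over the 6 times and 0 fell (median log2 0.04), and against the same 6.06% and 4.13% nothing is read from this count either. It was TSPAN33, which steers ADAM10 (log2 0.50 ± 0.13, limma adjusted p = 0.0349), and TSPAN5 rose over 3 to 12 h (0.60 ± 0.15, adjusted p = 0.0415). With time TSPAN33 rose by 0.26 per doubling (adjusted p = 0.0109) and TSPAN17 fell, its slope being -0.12 (adjusted p = 0.0417). Of 11 tested shed substrates 1 fell over the 6 times, against 4.13% of all genes, and 0 rose (median log2 -0.01). BTC, the EGF receptor ligand betacellulin, went from 3.25 ± 0.41 to 1.87 ± 0.44 RPKM (log2 -0.68 ± 0.13, adjusted p = 0.0184). CDH1, E-cadherin, rose over 24 to 72 h (log2 0.94 ± 0.23, adjusted p = 0.0434). With time CDH1 and the TNF receptor gene TNFRSF1A rose and CDH2 fell (0.38, 0.20 and -0.19 per doubling, adjusted p = 0.0165, 0.01 and 0.00661).

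Of 14 tested matrix genes that MMPs can cut, 2 rose over the 6 times and 0 fell (median log2 0.09), against 6.06% and 4.13% of all tested genes (median 0.002). The basement membrane genes NID1 and LAMB1 rose by log2 0.70 ± 0.13 and 0.40 ± 0.10 (limma adjusted p = 0.0163 and 0.0327). NID1 also rose over 24 to 72 h (0.79 ± 0.18, adjusted p = 0.0335) and COL1A1 over 3 to 12 h (1.11 ± 0.23, adjusted p = 0.0259), COL1A1 also being the 1 of 4 tested fibroblast markers called in that period. With time 7 of the 14 rose and 1 fell, against 15.1% and 9.62% of all tested genes, led by NID1, FN1, LAMB1 and LAMA5 (0.33, 0.33, 0.26 and 0.23 per doubling, adjusted p = 0.00365, 0.0108, 0.00336 and 0.0127). Among the 7, HSPG2 lost its call under median centring (0.0571) and quantile normalization (0.0661), and VCAN under median centring (0.050002), without the trend (0.0514) and in the fit of 12 libraries with medium as a term (0.0727). SPARC rose with time as well (0.35, adjusted p = 0.00801).

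AP-1 and ETS factors bind many MMP promoters. The list of these factors also holds SP1 and EGR1, which are of neither family. Of its 11 tested genes 0 were called over the 6 times by limma (median log2 -0.01). Among all tested genes 6.06% were called higher and 4.13% lower, so nothing is read from this count. JUN averaged 56.9 and 41.3 RPKM in control and CAF medium, and JUND 36.2 and 47.7. ETS1 fell over 3 to 12 h by 0.72 on the log2 scale (adjusted p = 0.0259). With time ETV4 rose (0.33, adjusted p = 0.00678) while ETS2, FOSL1 and JUN fell (-0.24, -0.22 and -0.16, adjusted p = 0.00639, 0.0284 and 0.0219), although in CAF medium alone the slopes of FOSL1 and JUN were 0.05 and 0.07.

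Many calls of these list genes were lost when a single pair was left out. Of the 6 called over the 6 times, leaving out the 6 h pair ended 6 (adjusted p = 0.0521 to 0.144), as did leaving out that of 12 h (0.0569 to 0.125). Leaving out 24 h ended 5, with THBS1 kept (0.0553 to 0.119), 48 h ended 3 (LAMB1, RECK and TSPAN33, 0.0635 to 0.0669), and 3 h ended RECK alone (0.0758). Of the 6 called over 3 to 12 h, leaving out 6 h ended 6 (0.0514 to 0.198), 12 h ended 6 (0.059 to 0.2), 3 h ended 5, with THBS1 kept (0.0512 to 0.127), and 48 h ended TSPAN5 (0.0511). The late calls of CDH1 and NID1 ended when 12, 24 or 48 h was left out (0.0592 to 0.259), and that of CDH1 also when 72 h was (0.0691). Of the 25 called with time, leaving out 72 h ended 17, 48 h ended 10, 6 h ended 8, 3 h ended 3 and 24 h ended 1.

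Other settings ended calls of list genes too. With no filter on low values, and with no time term, the 6 calls over the 6 times, the 6 early and the 2 late ones were all lost (limma adjusted p = 0.0689 to 0.184 and 0.0754 to 0.439). RECK lost its call over the 6 times without the trend (0.0519) and at a mean of at least 5 RPKM (0.0588), and ADAMTS6 and RECK lost their early calls under quantile normalization (0.0556 and 0.0512). CDH1 lost its late call with a pseudocount of 0.1 (0.0509) and without the trend (0.0557). Of the 25 calls with time, 6 were lost with no filter, 7 in control medium alone and 11 in CAF medium alone. ADAM22 lost its call under quantile normalization (0.0575), and FOSL1 and JUN in the fit of 12 libraries with medium as a term (0.0924 and 0.14).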

How the data were processed

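A total of 12 polyadenylated RNA libraries were analysed, 1 per medium and time. The authors deposited RPKM values, scaled by gene model length and mapped reads and written to 2 decimals, beside each model's length. TopHat2, edgeR and the build hg19 are named per the submitters' processing notes. Not given in the sources used here are versions, the counting step, its use of strand and how the 2 biological replicates were joined. Columns were matched to libraries through the column code in the sample labels, and 0 value columns lacked a library. The 12 small RNA libraries were not used here. Depth was worked out from the steps between low values of gene models under 400 bases, of which 100% were whole reads within 0.1 read. Intervals of ratios are exact (Clopper-Pearson) 95% intervals from those reads and cover counting error only. The ratios themselves were taken from the RPKM values, whose rounding the intervals do not cover. Tests used limma 3.58.1 in R 4.3.3 (lmFit, then eBayes with its trend option, both sides tested) on log2(RPKM + 0.5), a scale that understates changes of low genes, in the 12029 of 22026 genes whose mean reached 1 RPKM. Time was a factor, so each CAF medium library was set against the control of its own time. The early and late effects shared 1 fit. Change with time was a slope on log2 hours through the mean of both media at each time. Benjamini-Hochberg adjustment covered every tested gene, with a threshold of 0.05. Scripts were tested on simulated data. Members and gene lists were chosen with earlier results of these data known. All 10 members are named. From each list the genes past the threshold are named, at most 4 per comparison and largest change first, or else the 2 of highest mean. The 3 genes most correlated with each of the 3 members of largest overall change are named too. Alternatives were other pseudocounts, filters and scalings, no trend, no time term, other time fits and leaving out each time.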

Additional observations from a re-analysis of the deposited data

Results flagged for a closer look

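Within each medium, the lowest and the highest of the 6 libraries were compared with their nearest neighbour for each member, by Dixon's gap test at 0.625. Of the 20 groups 3 passed, and chance alone flags about 1 in 20 groups. TIMP1 in CAF medium was highest at 6 h, at 42.12 RPKM, with the next library at 31.73. TIMP2 in control medium was highest at 3 h, at 90.24 RPKM, with the next at 78.20. ADAM10 in CAF medium was lowest at 12 h, at 21.26 RPKM, with the next at 30.92, in the library where ADAM17 was lowest too. Genes outside the members, such as FN1, VCAN, TSPAN14 and NOTCH2, were also lowest in that library, so this is not particular to the sheddases. The 6 libraries are different times, so a gap can hold a change with time.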

How the results depend on the processing

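The time term pairs the media by the time that the labels give. Without it (no replicate block), the genes called numbered 0 over the 6 times, 13 over 3 to 12 h, 0 over 24 to 72 h and 0 for the difference of the periods, against 1226, 677, 492 and 50 with it. At an unadjusted p under 0.05 limma gave 1691, 1523 and 813 genes where the count was 0. With no filter on low values the counts were 0, 0, 36 and 0 in the same order, with 4744, 3797 and 1968 genes at an unadjusted p under 0.05 where the count was 0. With a mean of at least 5 RPKM, which leaves fewer genes to test, they were 601 over the 6 times, 365 over 3 to 12 h and 1758 for change with time (2968 with the lower filter). Without the trend the difference of the periods gave 0 genes (1369 unadjusted), and CAF medium alone gave 1394 genes for change with time. Leaving out 1 time pair gave 34 to 1399 genes over the 6 times, 0 to 1084 early, 31 to 542 late, 0 to 242 for the difference and 816 to 3460 with time. The cause of these shifts was not tested.

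Genes past a log2 difference of 1 at single times numbered 262, 396, 516 and 109 at 3, 6, 12 and 72 h, and 444, 671, 818 and 179 with a pseudocount of 0.1. With a pseudocount of 1 they were 165, 209 and 311 at 3, 6 and 12 h.

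Among the members and called list genes, signs of the fitted effects turned in the following values. Median centring gave ADAM17 -0.0036 early and MMP24 0.011 late, and quantile normalization gave MMP24 0.026 and ADAM10 0.028 late and TIMP2 0.0045 with time. The TIMP2 slope was 0.00027 on linear hours and 0.021 in CAF medium alone, where MMP24, JUN and FOSL1 had slopes of 0.016, 0.067 and 0.0504. With 1 time pair left out, the log2 change over the 6 times ranged from -0.025 to 0.22 for TIMP1, -0.026 to 0.15 for ADAM17 and -0.11 to 0.014 for ADAM10. Early it ranged from -0.44 to 0.17 for TIMP1, -0.15 to 0.29 for ADAM17 and -0.25 to 0.067 for ADAM10. Late it ranged from -0.044 to 0.67 for MMP2, -0.22 to 0.16 for MMP24, -0.043 to 0.16 for ADAM17 and -0.078 to 0.013 for ADAM10. The difference of the periods ranged from -0.054 to 0.49 for MMP14, -0.23 to 0.21 for ADAM17 and -0.088 to 0.23 for ADAM10, and the TIMP2 slope from -0.028 to 0.031. At single times, which have no test, the sign of TIMP2 at 3 h turned from -0.0033 to 0.052 and TIMP2 at 12 h from 0.009 to -0.0198 under quantile normalization. Median centring turned TIMP2 at 12 h to -0.0011, ADAM17 at 24 h from 0.0498 to -0.015 and ADAM10 at 72 h from -0.067 to 0.00084. Depth limits MMP1 and TIMP3, which had as few as 1 read in a library.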
